A study of Mus musculus with 9 samples.

Results

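The BTG and TOB antiproliferative family was followed in RNA sequencing of 4T1 mammary tumors from mice given a kinase inhibitor or its vehicle. The genes were chosen by symbol, with their values in BI and vehicle tumors already known, as Btg1, Btg2, Btg3, Tob1 and Tob2. These are 5 of the 18755 genes with deposited counts, and all 5 were among the 13966 genes that passed the filter on low counts. Because the members were selected on the contrast of BI against vehicle, their values in it are given below as a description and were not tested.

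BTG and TOB proteins share an amino-terminal BTG domain and have no enzymatic activity of their own. They act as adaptors that bring the CCR4-NOT complex, the main cytoplasmic deadenylase, to messenger RNA, which shortens the poly(A) tail, and they slow the passage from G1 to S phase when overexpressed. Btg1 and Btg2 are known for keeping lymphocytes quiescent, and Btg2, also called TIS21 or PC3, is an immediate early gene and a target of p53. Tob1 was found as a partner of the receptor ERBB2, and the TOB proteins also bind the cytoplasmic poly(A)-binding protein.

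4T1 is a metastatic cell line from a mammary tumor of a BALB/c mouse, and 1000000 of its cells were injected into a mammary fat pad of female BALB/c mice aged 6 to 10 weeks. Dosing began on day 15 and lasted 5 days, with 50 mg/kg of the focal adhesion kinase (FAK) inhibitor BI 853520 (BI, 6 tumors, numbered 4 to 9) or with 0.5% Natrosol, the carrier alone (vehicle, 3 tumors, numbered 1 to 3). Both groups therefore carried the same cell line in the same host strain and differed in the agent. RNA came from pieces of whole tumor, kept only where its quality sufficed according to the study's methods, so host cells were sequenced together with carcinoma cells.

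Total counts ranged from 16931607 to 33850245 per tumor, so that 1 count stood for 0.0295 to 0.058 CPM (the count of a gene per 1000000 counts of its library, scaled by the TMM method). The labels give each tumor a code of its own but do not describe the mice further, so the p values measure the spread between these tumors. The keratins Krt8 and Krt18 of the carcinoma cells were present at 347 CPM or more in every tumor, and the summed level of 10 epithelial markers was 967 to 1191 CPM in vehicle tumors and 759 to 968 CPM in BI tumors. Across all genes tested, 2040 rose and 1973 fell after BI at an adjusted p of at most 0.05 (edgeR quasi-likelihood test, Benjamini-Hochberg adjustment).

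The promoters of Btg1, Btg2 and Tob2 are shown because Btg1 had the highest level of the family, while Btg2 and Tob2 were the members in which the 2 groups of tumors did not overlap. Each sequence is the 250 bases before the RefSeq transcription start on GRCm38.p6, read 5′ to 3′ on the strand of the gene, with capitals on every match to 1 of the motifs named afterwards. They lie at chr1:134079156-134079405 (minus strand) for Btg2, chr15:81858327-81858576 (minus strand) for Tob2 and chr10:96616751-96617000 (plus strand) for Btg1.
Btg2: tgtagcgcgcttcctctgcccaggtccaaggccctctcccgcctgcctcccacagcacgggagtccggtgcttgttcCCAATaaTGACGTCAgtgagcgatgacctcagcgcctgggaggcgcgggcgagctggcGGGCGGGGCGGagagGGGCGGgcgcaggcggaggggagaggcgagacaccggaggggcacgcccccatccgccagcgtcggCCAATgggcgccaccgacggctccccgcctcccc
Tob2: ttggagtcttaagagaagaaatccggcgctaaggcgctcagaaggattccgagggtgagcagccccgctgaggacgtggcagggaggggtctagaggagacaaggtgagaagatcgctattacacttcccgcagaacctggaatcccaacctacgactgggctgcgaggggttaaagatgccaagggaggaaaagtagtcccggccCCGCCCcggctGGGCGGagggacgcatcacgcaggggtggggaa
Btg1: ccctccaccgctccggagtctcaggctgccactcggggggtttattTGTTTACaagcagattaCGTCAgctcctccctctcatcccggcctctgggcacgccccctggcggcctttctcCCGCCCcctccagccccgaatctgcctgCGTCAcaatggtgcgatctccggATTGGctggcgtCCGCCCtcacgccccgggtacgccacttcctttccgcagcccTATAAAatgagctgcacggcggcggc

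Btg2 was the family gene whose promoter held a full cyclic AMP response element (CRE), the site bound by CREB and ATF factors. Its letters TGACGTCA stood at -166 to -159 counted from the transcription start, and 1.55% of the 32851 RefSeq promoter windows of this length hold it. The CRE half-site TGACG, which the full element contains on both strands, also occurred at -187 to -183 and -103 to -99 of Btg1 and at -96 to -92 of Tob1, against 17.8% of all windows. The CCAAT box (letters CCAAT) was found in 5 of the 6 family windows, Btg3 having 2 annotated starts, and Tob2 was the gene without it; 33.8% of all windows hold this box. The GC box GGGCGG was likewise found in 5 of 6 windows, the upstream start of Btg3 being the exception, and in 32.7% of all windows.

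A TATA box (TATAAA) stood at -26 to -21 of Btg1 and at -47 to -42 of Tob1, with 12.4% of all windows holding one. Btg1 had in addition the FOXO site TGTTTAC at -204 to -198, present in 3.17% of all windows. No family window held the E-box CACGTG (6.02% of all windows), the CArG box (1.47%) or the p53 half-site (7.13%) as searched on both strands. The GC content was 73.2% for Btg2, 73.6% for Tob1, 65.2% for Btg1, 60.4% for Tob2 and 57.2% and 75.2% for the 2 windows of Btg3, above the median of 52.4% for all windows in each case. These matches describe letters in a window and were not read as binding.

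**Figure D1:**
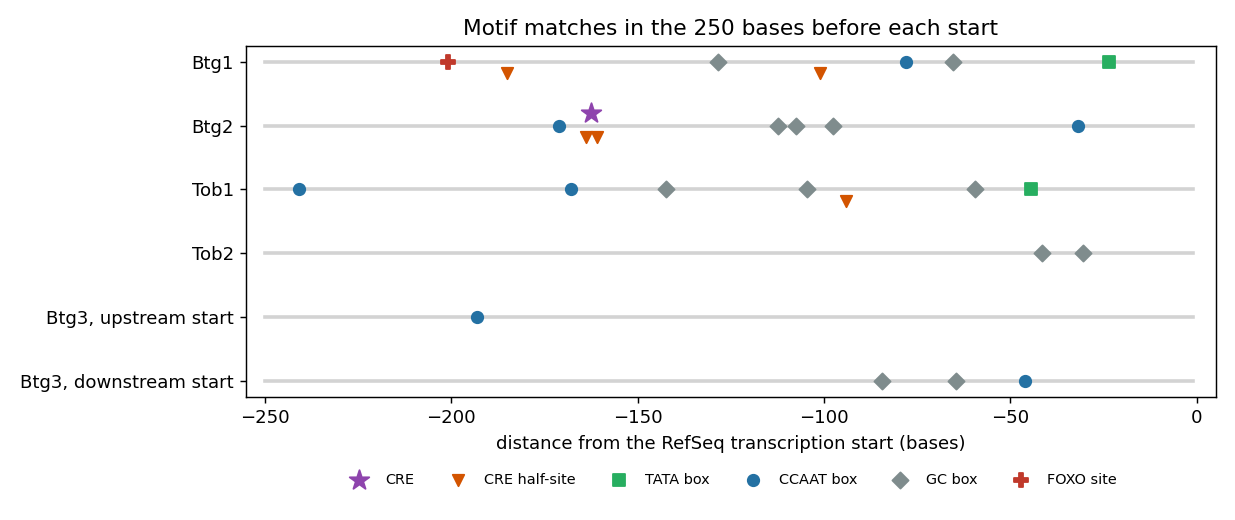
Motif matches in the 250 bases before each RefSeq start of the 5 family genes, with the distance from the start in bases on the horizontal axis and 1 line per promoter window (2 for Btg3). The full CRE is seen in Btg2, the FOXO site in Btg1 and TATA boxes in Btg1 and Tob1, while Tob2 shows 2 GC boxes close to its start.

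On the mm9 assembly used for the counts, the genes lie on 5 chromosomes. GENCODE places Btg1 at chr10:96079635-96085447, Btg2 at chr1:135971747-135975697, Btg3 at chr16:78360105-78377437, Tob1 at chr11:94072768-94076809 and Tob2 at chr15:81678700-81688756. Exons of Tob2 overlap a second model of the same name and strand at chr15:81688104-81689226, while the other 4 genes share no exon with an annotated neighbour.

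Btg2, the immediate early member, differed most in level between the groups. Vehicle tumors 1, 2 and 3 had 25.8, 21.4 and 22.0 CPM, and BI tumors had 31.8 CPM at the lowest, 34.5 at the median and 36.3 at the highest. All 6 BI tumors lay above all 3 vehicle tumors, as they did for 14.1% of the genes tested. The means were 23.1 ± 2.36 CPM (SD, n = 3) and 34.3 ± 1.52 CPM (SD, n = 6), a 1.49-fold higher level after BI with a log2 fold change of 0.57 (SE 0.0767).

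Tob2, an adaptor that binds both the deadenylase and the poly(A)-binding protein, was the other gene without overlap. It stood at 37.6, 39.0 and 36.1 CPM in vehicle tumors 1, 2 and 3, and at 42.4, 47.1 and 50.3 CPM as the lowest, median and highest of the BI tumors. Every BI tumor was above every vehicle tumor. Mean levels were 37.6 ± 1.47 CPM (SD, n = 3) and 46.5 ± 2.66 CPM (SD, n = 6), which is 1.24-fold, with a log2 fold change of 0.31 (SE 0.065).

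Tob1, its close relative and a partner of ERBB2 and of SMAD proteins, overlapped between the groups. Its vehicle values were 14.6, 17.1 and 14.0 CPM, and its BI values ran from 15.2 over a median of 16.4 to 21.2 CPM, with 2 of 6 BI tumors (4 and 5) above all vehicle tumors. The means of 15.2 ± 1.64 CPM (SD, n = 3) and 17.2 ± 2.21 CPM (SD, n = 6) gave 1.13-fold and a log2 fold change of 0.18 (SE 0.114), or 0.11 without BI tumor 5. Tob2 was thus the TOB gene with the larger difference in these tumors, and the difference between the 2 genes was not tested.

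Btg1, the member with the highest level, was slightly lower after BI. Vehicle tumors had 253, 268 and 248 CPM, whereas BI tumors had 233 CPM at the lowest, 237 at the median and 266 at the highest. In 5 of 6 BI tumors the value was below all vehicle tumors, the exception being tumor 4, so that Btg1 is not among the 14.0% of genes with all BI tumors below all vehicle tumors. Its means were 256 ± 10.2 CPM (SD, n = 3) and 242 ± 12.7 CPM (SD, n = 6), 0.945-fold, with a log2 fold change of -0.08 (SE 0.0587), or -0.05 without vehicle tumor 2. RefSeq lists the related genes Btg1b and Btg1c, which were not analysed here, and reads matching more than 1 place were left out by the alignment, so the level of Btg1 is uncertain to that extent.

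Btg3, also called ANA, had the lowest level of the 5 and the widest spread. The vehicle tumors had 4.26, 6.67 and 5.75 CPM, and the BI tumors ranged from 3.77 over a median of 5.21 to 8.21 CPM. BI tumor 6 was above all vehicle tumors and BI tumor 9 below them all, so the groups overlapped fully. Mean levels of 5.56 ± 1.21 CPM (SD, n = 3) and 5.48 ± 1.53 CPM (SD, n = 6) gave 0.986-fold and a log2 fold change of -0.02 (SE 0.223), and this value was positive, at most 0.12, without vehicle tumor 2 or 3 or without BI tumor 4, 7 or 9. Btg4, the oocyte member, had 1 count in each of BI tumors 4 and 5 and none in the other tumors, which is under the floor of 3 counts and gives no fold.

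Among all genes tested the median log2 fold change was -0.0037, with quartiles of -0.17 and 0.21. Btg2 stood at the percentile 88.5 of this distribution and Tob2 at 80.3, followed by Tob1 at 72.7, Btg3 at 47.6 and Btg1 at 37.6. Btg2 and Tob2 stood above the third quartile and no member below the first, where quartiles by definition hold a fixed share of all genes. Since the members were selected on this contrast, these places are a description and not a result about the family. In whole tumors, a change in the number of cells that express a gene and a change in its RNA per cell cannot be told apart.

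**Figure D2:**
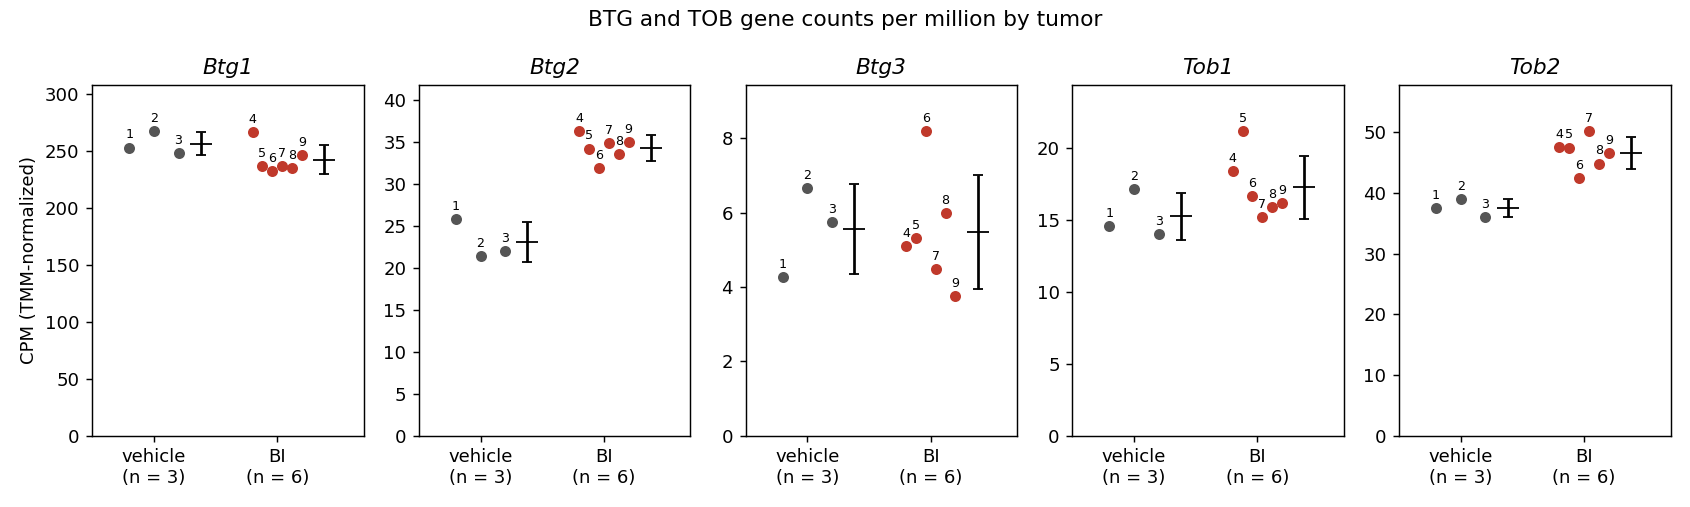
CPM (TMM-normalized) of the 5 family genes by tumor, with 1 panel per gene, each axis starting at 0, points numbered by tumor and bars giving mean ± SD for 3 vehicle and 6 BI tumors. BI points lie above all vehicle points for Btg2 and Tob2, while both groups overlap for Btg1, Btg3 and Tob1.

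Per kilobase of the deposited gene length, used here to compare levels of different genes, Btg1 led the family by a wide margin. How that length was computed is not given in the sources used here, so the order of close levels depends on it. Its level was 51.2 ± 2.03 CPM per kilobase in vehicle (SD, n = 3) and 48.4 ± 2.53 in BI tumors (SD, n = 6). Tob2 followed with 9.40 ± 0.369 and 11.7 ± 0.666, then Btg2 with 7.48 ± 0.766 and 11.1 ± 0.493, Tob1 with 6.66 ± 0.719 and 7.54 ± 0.965, and Btg3 with 4.00 ± 0.872 and 3.95 ± 1.11 CPM per kilobase. The order of the means was the same in both groups.

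Neighbours in this order were compared within each tumor by an exact sign-flip permutation test (two-sided, 9 tumors, 4 pairs, smallest possible p 0.0039), with the reservation that the order was set on the same tumors. The 9 tumors also pool both groups, between which Btg2 and Tob2 differed, so the p values do not speak for either group alone. Btg1 was 4.54-fold above Tob2 in 9 of 9 tumors (log2 ratio 2.18, SD 0.209, adjusted p 0.0052, exact permutation test). Tob2 was above Btg2 in 9 of 9 tumors by 1.11-fold (log2 ratio 0.16, SD 0.161, adjusted p 0.0052, exact permutation test), a gap about as large as its own spread. That spread includes the groups, with means of 9.40 against 7.48 CPM per kilobase in vehicle and 11.7 against 11.1 in BI tumors. Without division by length Tob2 was 1.44-fold above Btg2, and the p value does not cover an error in the lengths. Btg2 exceeded Tob1 in 8 of 9 tumors, vehicle tumor 2 being the exception, by 1.35-fold (log2 ratio 0.43, SD 0.275, adjusted p 0.0078, exact permutation test). Here the means were 7.48 against 6.66 CPM per kilobase in vehicle and 11.1 against 7.54 in BI tumors, so the gap was wider after BI. Tob1 exceeded Btg3 in 9 of 9 tumors by 1.86-fold (log2 ratio 0.90, SD 0.363, adjusted p 0.0052, exact permutation test).

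As a share of the summed level per kilobase of the 5 genes, Btg1 made up 65.0% ± 0.198 in vehicle (SD, n = 3) and 58.5% ± 1.30 in BI tumors (SD, n = 6). The share of Btg2 was 9.52% ± 1.17 and 13.5% ± 0.415, and that of Tob2 was 11.9% ± 0.143 and 14.1% ± 0.826. Tob1 held 8.45% ± 0.545 and 9.12% ± 1.02, and Btg3 5.07% ± 0.990 and 4.79% ± 1.42. The mixture of family transcripts in BI tumors therefore contained less Btg1 and more Btg2 and Tob2, as follows from the levels above.

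**Figure D3:**
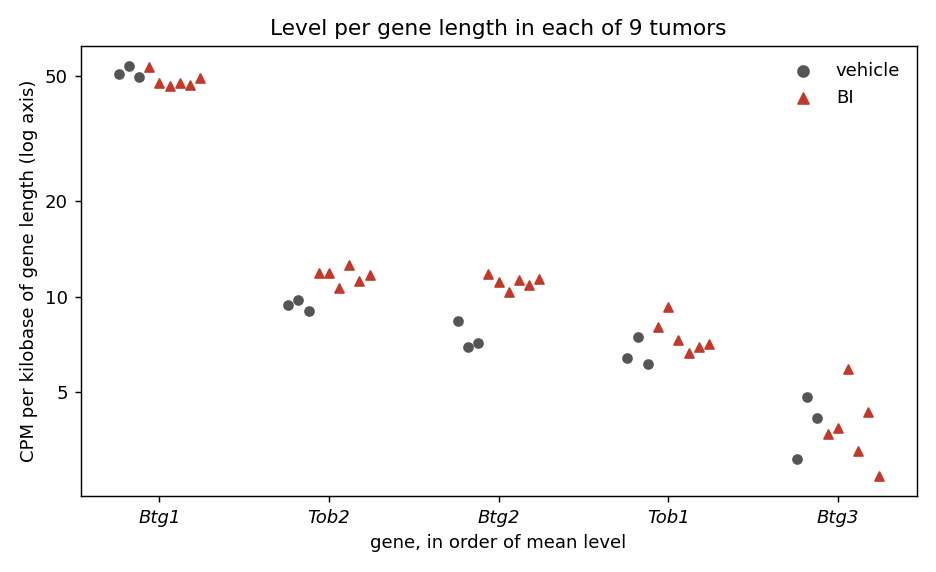
CPM per kilobase of gene length on a log axis for the 5 family genes in order of mean level, with 1 point per tumor (3 vehicle, 6 BI). Btg1 lies at 46.5 or above in every tumor and no other gene exceeds 12.6.

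Within a group, the tumors varied by different amounts from gene to gene. The coefficient of variation among the BI tumors was 4.44% for Btg2, 5.23% for Btg1 and 5.72% for Tob2, against 12.8% for Tob1 and 28.0% for Btg3. In the vehicle tumors it was 10.2% for Btg2, 3.97% for Btg1, 3.92% for Tob2, 10.8% for Tob1 and 21.8% for Btg3. The lowest counts were those of Btg3, with 65 to 195 counts per tumor, so counting error weighs most on this gene.

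Relations among the genes were examined across the 6 BI tumors, using log2 CPM and 10 pairs of members together with 10 relations to the mean of the T cell markers or of the G2/M genes. None of the 20 relations passed an adjusted p of 0.05 in an exact permutation test over 720 orders, and at an unadjusted p of 0.05 there were 0 by Pearson's r and 1 by Spearman's rho. That one was Btg1 with Btg2 (r = 0.81, exact permutation p 0.056, adjusted 0.37; rho = 0.94, exact permutation p 0.017, adjusted 0.33), with r = 0.94 without tumors 4 and 9. Btg2 and Tob2 had r = 0.78 (exact permutation p 0.072, adjusted 0.37; rho = 0.71, p 0.14, adjusted 0.58) and r = 0.65 without tumors 6 and 4.

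Btg3 had negative values with Btg1, Btg2 and Tob2 in BI tumors, none of them past the threshold. With Btg2 it had r = -0.79 (exact permutation p 0.068, adjusted 0.37; rho = -0.83, p 0.058, adjusted 0.58) and r = -0.96 without tumors 6 and 4. With Tob2 it had r = -0.77 (exact permutation p 0.074, adjusted 0.37; rho = -0.66, p 0.18, adjusted 0.58) and r = -0.99 without tumors 6 and 9. The 2 TOB genes had r = 0.058 (exact permutation p 0.91; rho = -0.086, p 0.92), which became -0.90 without tumors 5 and 4, so it rests on those tumors.

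The T cell marker mean had r between -0.47 (Btg1) and -0.012 (Tob2) with the 5 genes, and Btg2 had -0.37 (exact permutation p 0.50; rho = -0.20, p 0.71). The G2/M mean had r = 0.49 with Btg1, 0.41 with Btg2, -0.41 with Btg3, -0.64 with Tob1 and 0.025 with Tob2, the smallest exact permutation p of the 5 being 0.17. The value for Tob1 rests on tumors 5 and 9, without which it was 0.39. Without tumors 4 and 8, the T cell marker mean had r = 0.18 with Btg1 and -0.94 with Tob1, against -0.47 and -0.31 over all 6 tumors. With 6 tumors, a relation of moderate size was not detectable.

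**Figure D4:**
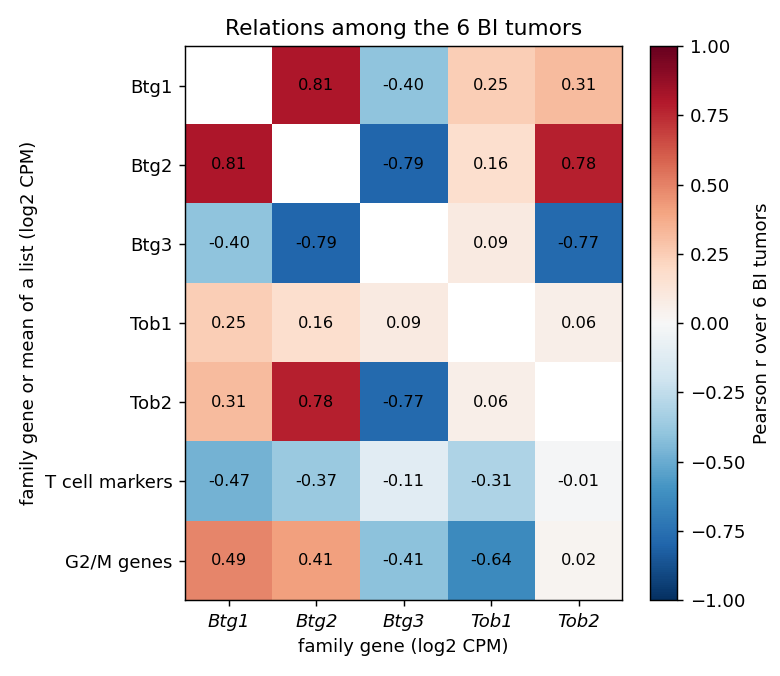
Pearson's r of log2 CPM over the 6 BI tumors between each family gene (columns) and the family genes, the T cell marker mean or the G2/M mean (rows), from blue (-1) to red (1). The largest positive values are Btg1 with Btg2 (0.81) and Btg2 with Tob2 (0.78), the most negative are Btg3 with Btg2 (-0.79) and with Tob2 (-0.77), and none passed an adjusted p of 0.05.

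The genes most like each member were taken from 10360 genes with a mean log2 CPM of at least 3, by Pearson's r over the 9 tumors after subtraction of the group means, as a description. For Btg2 they were Hhex (0.97), Tmem40 (0.95) and Prnp (0.94), and for Btg1 they were Wwtr1 (0.96), Retreg1 (0.95) and Hmga2 (0.95). Btg3 was followed most closely by Arl16 (0.996), Noc3l (0.94) and Qtrt2 (0.94). Tob1 had Mink1 (0.97), Mgl2 (0.96) and Tmem50a (0.95), and Tob2 had Tmem184b (0.91), Tbc1d9 (0.91) and Sec14l2 (0.89). No member was among the 3 genes most like another member, but Btg3 was below the cutoff on level and could not be. As the highest of 10360 values over 9 tumors, these r are raised by the choice itself.

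CCR4-NOT, the complex that the family recruits, had log2 fold changes from -0.17 to 0.07. Of its 11 measured subunits 0 rose and 1 fell, against 14.6% and 14.1% of all genes tested, with a median log2 fold change of -0.09. The unadjusted count at p of at most 0.05 was 0 higher and 4 lower, and DESeq2 called 0 and 1. All BI tumors lay below all vehicle tumors for 4 subunits and above them for 0, against 14.0% and 14.1% of all genes tested. The one call was Cnot7, a catalytic subunit that the BTG domain contacts, which went from 97.1 ± 2.63 CPM (SD, n = 3) to 86.5 ± 4.65 CPM (SD, n = 6) with a log2 fold change of -0.17 (SE 0.0566) and an adjusted p of 0.045 in edgeR. This call was lost when any tumor except BI tumor 4 was left out, with scaling by library size alone and with no filter on low counts, with adjusted p up to 0.14. Cnot2, with the next smallest p, had a log2 fold change of -0.14 (adjusted p 0.0699, edgeR), and the scaffold Cnot1, the most abundant subunit, had 215 CPM in vehicle and 211 CPM in BI tumors.

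Poly(A)-binding proteins, some of which the TOB proteins contact, were listed together with the remaining deadenylases. Of 7 genes 0 rose, 3 fell and 4 did not pass the test, against 14.6% higher and 14.1% lower over all genes tested. At an unadjusted p of at most 0.05, 0 were higher, DESeq2 called 0 higher, and the median was -0.17. Pabpc4 fell from 39.9 ± 2.25 to 27.6 ± 2.53 CPM (log2 fold change -0.53, edgeR adjusted p 0.00068). Pabpc1, the most abundant of the list, fell from 1790 ± 98.4 to 1407 ± 79.5 CPM (log2 fold change -0.35, edgeR adjusted p 0.0039). Noct, which encodes nocturnin, fell from 71.4 ± 22.1 to 42.5 ± 5.05 CPM (log2 fold change -0.75, edgeR adjusted p 0.0037, against -0.47 and 0.0149 without vehicle tumor 1). Here and below, ± is the SD of 3 vehicle and of 6 BI tumors.

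Decapping and 5′ decay genes, which act after deadenylation, gave no call in either direction among 8 genes, with 0 at an unadjusted p of at most 0.05 and 0 by DESeq2. Of all genes tested, 14.6% were higher and 14.1% lower. Ddx6, the most abundant of the list, had 346 CPM in vehicle and 339 CPM in BI tumors.

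Among 18 other adaptors that bring CCR4-NOT to messenger RNA, 2 rose and 3 fell, with a median of 0.00. These counts are near the shares of 14.6% higher and 14.1% lower over all genes tested. Samd4, a Smaug protein, fell from 105 ± 3.69 to 67.2 ± 6.57 CPM (log2 fold change -0.65, edgeR adjusted p 0.00013). Cpeb4, a binder of cytoplasmic polyadenylation elements, rose from 19.5 ± 1.51 to 25.5 ± 2.57 CPM (log2 fold change 0.38, edgeR adjusted p 0.011, and 0.059 without vehicle tumor 1). Zfp36l2, the most abundant, had 408 and 439 CPM and did not pass the test (edgeR adjusted p 0.22). Without vehicle tumor 1 the list had 0 genes higher, and without vehicle tumor 3 it had 1 higher and 1 lower, while leaving out BI tumor 4, 6 or 7 left 1 higher.

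Other binding partners of BTG and TOB proteins were lower where they passed the test, with 0 of 6 tested genes higher and 3 lower. The shares over all genes tested were 14.6% and 14.1%. At an unadjusted p of at most 0.05, 0 were higher, and DESeq2 called 0 higher. Erbb2, the receptor for which TOB was named, fell from 40.8 ± 2.94 to 33.0 ± 1.78 CPM (log2 fold change -0.31, edgeR adjusted p 0.0069). Smad4 fell from 131 ± 5.21 to 113 ± 4.41 CPM (log2 fold change -0.22, edgeR adjusted p 0.0099, and 0.0501 without vehicle tumor 3). The arginine methyltransferase Prmt1, which Btg1 and Btg2 bind, fell from 200 ± 12.2 to 167 ± 11.3 CPM (log2 fold change -0.25, edgeR adjusted p 0.015, against 0.0545 without vehicle tumor 1 and 0.0796 without vehicle tumor 3). Without vehicle tumor 3 the list had 1 gene lower.

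Genes known to share inputs with Btg2 are described next, and whether a common input acts on them in these tumors was not tested. Of 18 genes of the p53 list 4 rose and 0 fell, against 14.6% and 14.1% of all genes tested, with a median of 0.08. At an unadjusted p of at most 0.05 (edgeR), 6 were higher and 1 lower, and DESeq2 called 4 higher and 1 lower. The gene lower at the unadjusted threshold was Mdm2, with 113 and 100 CPM (log2 fold change -0.17, edgeR adjusted p 0.061). Cdkn1a had 71.0 and 72.9 CPM (log2 fold change 0.04, edgeR adjusted p 0.72). Both were named outside the rule for genes. Sesn1, a sestrin, rose from 45.8 ± 6.63 to 70.0 ± 12.1 CPM (log2 fold change 0.61, edgeR adjusted p 0.0076). Ccng1 rose from 113 ± 4.19 to 127 ± 5.99 CPM (log2 fold change 0.17, edgeR adjusted p 0.038), a call lost without vehicle tumor 1, 2 or 3 or BI tumor 4, 6 or 7 and with no filter on low counts, with adjusted p up to 0.15. Gadd45a, a stress-response gene and the most abundant of the list, had 274 ± 98.2 and 356 ± 42.1 CPM and did not pass the test (log2 fold change 0.38, edgeR adjusted p 0.12). Without vehicle tumor 2 it was called higher (log2 fold change 0.71, edgeR adjusted p 0.00298), and without vehicle tumor 1 its log2 fold change was 0.19. The list had 1 gene higher without vehicle tumor 1 or BI tumor 7, and 2 without BI tumor 4 or with no filter on low counts.

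Immediate early genes, the class to which Btg2 belongs, gave 0 of 20 higher and 6 lower, against 14.6% and 14.1% of all genes tested. Their median was -0.15, with 0 higher at an unadjusted p of at most 0.05 and 0 called higher by DESeq2. Ier3 fell from 108 ± 15.8 to 64.2 ± 5.75 CPM (log2 fold change -0.75, edgeR adjusted p 0.0002), and Maff fell from 50.5 ± 5.38 to 30.3 ± 4.17 CPM (log2 fold change -0.74, edgeR adjusted p 0.00055). Klf6, the most abundant, had 232 and 259 CPM and did not pass the test (edgeR adjusted p 0.13), though its BI tumors all lay above its vehicle tumors. Log2 fold changes of the 20 genes ran from -0.82 to 0.25, so the list held both directions. Btg2 itself was chosen on this contrast, and its direction was not tested against that of the list. Without vehicle tumor 2, 1 of the 20 rose.

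FOXO and quiescence genes moved in both directions, with 6 of 16 higher and 2 lower. The shares over all genes tested were 14.6% and 14.1%, and the list median was 0.09. Tsc22d3, a glucocorticoid-induced leucine zipper gene, rose from 60.4 ± 6.88 to 105 ± 13.4 CPM (log2 fold change 0.80, edgeR adjusted p 0.0003). Txnip, the most abundant, rose from 239 ± 14.8 to 352 ± 45.6 CPM (log2 fold change 0.56, edgeR adjusted p 0.0021). Ccng2, a cyclin linked to cell cycle exit, fell from 158 ± 2.91 to 95.7 ± 6.28 CPM (log2 fold change -0.72, edgeR adjusted p 1.9e-05). Without vehicle tumor 1 or vehicle tumor 3 the list had 3 genes higher, and without vehicle tumor 2 it had 1 lower.

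Cell cycle genes were measured by a list for G1 and one for G2/M, and a link between their levels and those of the family was not tested. Of 12 G1 genes 2 rose and 4 fell, against 14.6% and 14.1% of all genes tested. Ccnd3 rose from 62.1 ± 3.22 to 91.1 ± 6.19 CPM (log2 fold change 0.55, edgeR adjusted p 0.00016). Ccnd1, the gene of cyclin D1, fell from 1491 ± 91.2 to 1050 ± 188 CPM (log2 fold change -0.51, edgeR adjusted p 0.017, against 0.071 without vehicle tumor 1 and 0.054 without vehicle tumor 3). Its partner Cdk6 fell from 62.0 ± 3.8 to 41.8 ± 3.55 CPM (log2 fold change -0.57, edgeR adjusted p 0.00028). The G1 list had 1 gene higher without vehicle tumor 2, vehicle tumor 3 or BI tumor 7, and 2 lower without vehicle tumor 3.

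Of 20 G2/M genes 0 rose and 11 fell, against 14.6% and 14.1% of all genes tested. Their median was -0.47, and their log2 fold changes ran from -0.70 to -0.22. At an unadjusted p of at most 0.05 (edgeR), 0 were higher and 18 lower, and DESeq2 called 0 higher and 15 lower. Their summed level was 3182 to 4356 CPM in vehicle tumors and 2063 to 3249 CPM in BI tumors. Cenpf, a kinetochore gene, fell from 290 ± 39.5 to 178 ± 25.8 CPM (log2 fold change -0.70, edgeR adjusted p 0.0012), and Top2a fell from 1022 ± 154 to 667 ± 90.4 CPM (log2 fold change -0.62, edgeR adjusted p 0.0032). Without vehicle tumor 1 or vehicle tumor 3 the list had 3 genes lower, so its count leans on those 2 tumors.

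**Figure D5:**
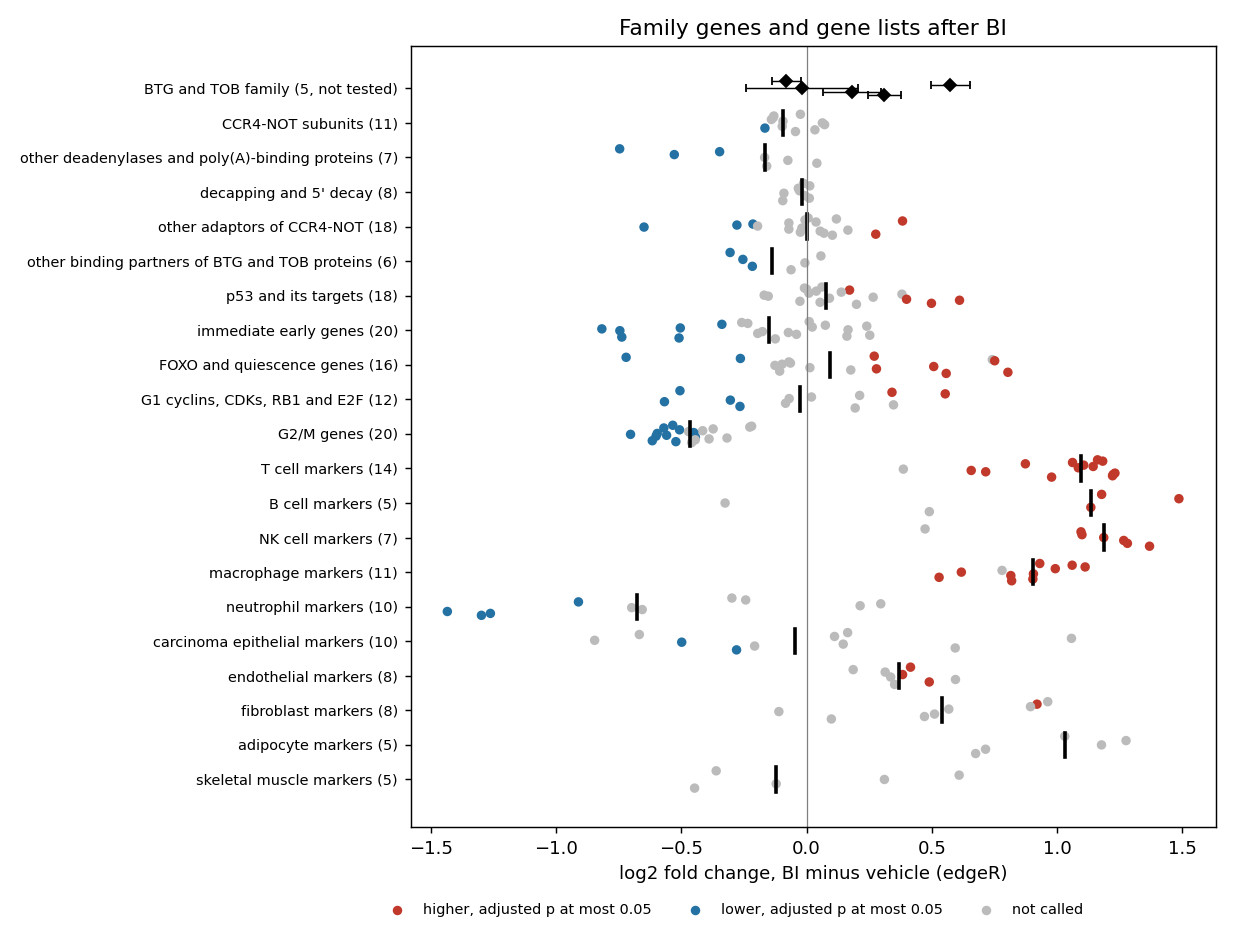
Log2 fold changes, BI minus vehicle (edgeR), of the 5 family genes (black diamonds, bars giving SE, not tested) and of the genes of each list (points, number tested in parentheses), with red for genes higher and blue for genes lower at an adjusted p of at most 0.05, grey for the others and a black bar at the list median. Btg2 and Tob2 lie at 0.57 and 0.31, among lists whose medians run from -0.68 for neutrophil markers to 1.19 for NK cell markers.

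Markers of host cells moved with the groups, where 14.6% of all genes tested were higher after BI and 14.1% lower. T cell markers rose for 13 of 14 genes, with a median log2 fold change of 1.10 and a summed level of 96.4 to 106 CPM in vehicle and 174 to 249 CPM in BI tumors. Cd3e went from 12.5 to 27.6 CPM (edgeR adjusted p 8.6e-05) and Cd8a, the most abundant, from 17.5 to 41.3 CPM (edgeR adjusted p 0.00044). NK cell markers rose for 6 of 7 genes (34 to 45 against 84.5 to 108 CPM in sum), and Prf1 went from 15.3 to 39.5 CPM (edgeR adjusted p 0.00028). Which cells expressed the NK cell markers was not tested, and the T cell markers rose in the same tumors.

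B cell markers, at 8.14 to 10.7 CPM in sum in vehicle and 12.2 to 19.7 CPM in BI tumors, rose for 3 of 5 tested genes, a count of 1 without vehicle tumor 2, vehicle tumor 3 or BI tumor 7. Macrophage markers rose for 10 of 11 genes (2076 to 2699 against 3947 to 4697 CPM), with C1qb at 273 and 591 CPM (edgeR adjusted p 1.3e-05). Neutrophil markers fell for 4 of 10 genes (1113 to 1293 against 394 to 876 CPM), with S100a9 at 384 and 156 CPM (edgeR adjusted p 0.00024). The other 6 were not called, and log2 fold changes ran from -1.43 to 0.30. Mmp9, the most abundant and a large part of the sum, had 517 and 319 CPM and overlapped between the groups (edgeR adjusted p 0.10). In none of these lists did a gene of the deposited table stand at 0 in every tumor, and the neutrophil gene Ly6g was not analysed here.

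The 10 epithelial markers had a median log2 fold change of -0.05, and 2 fell, Krt18 from 579 to 409 CPM (edgeR adjusted p 0.0064) and Krt8 from 478 to 394 CPM (edgeR adjusted p 0.044), the latter call being lost without vehicle tumor 1 or 2 or BI tumor 6, 7, 8 or 9 (adjusted p up to 0.20). None rose in edgeR, with 1 higher at an unadjusted p of at most 0.05 and 1 called higher by DESeq2. For this and the lists below, the shares over all genes tested were 14.6% higher and 14.1% lower. Among the 8 that did not pass, Epcam had 2.13 ± 0.603 and 4.42 ± 2.96 CPM (log2 fold change 1.06, edgeR adjusted p 0.0987) and Cdh1, the gene of E-cadherin, had 19.2 ± 0.566 and 21.5 ± 8.84 CPM (log2 fold change 0.16, edgeR adjusted p 0.686), both named outside the rule for genes. Krt8 and Krt18 made up most of the summed epithelial level. Endothelial markers rose for 3 of 8 genes, a count of 1 without vehicle tumor 1, 0 without vehicle tumor 3, 6 without BI tumor 6 and 5 without BI tumor 8. Fibroblast markers rose for 1 of 8 genes, a count that ran from 0 to 3 as single tumors were left out. Adipocyte and skeletal muscle markers gave 0 calls among 5 genes each in edgeR, with 1 and 0 genes at an unadjusted p of at most 0.05 and 0 by DESeq2, and 1 adipocyte marker rose without BI tumor 4 or 6. The part of these cell types in the levels of Btg1, Btg2, Tob1, Tob2 and Btg3 was not tested.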

How the data were processed

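RNA of 9 tumors (3 vehicle, 6 BI) was sequenced from stranded, paired-end mRNA libraries. The authors aligned reads with STAR to mm9, keeping unique hits, and the deposited counts are reads starting in any exon of a RefSeq gene, with neither normalization nor a filter stated; whether strand or both mates entered the counts is not given in the sources used here. Deposited gene lengths were used per kilobase as given, and 0 columns with values per sample were left unused.

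Symbols came from RefSeq for 18700 of 18755 Entrez identifiers, positions from a GENCODE annotation of mm9, and promoters from RefSeq on GRCm38.p6 (5 of 5 genes matched). Genes were filtered (filterByExpr, minimum count 10, minimum total 15), scaled by TMM and tested with edgeR 4.0.16 in R 4.3.3 (quasi-likelihood, BI against vehicle, no covariate, Benjamini-Hochberg adjustment over 13966 genes). The test was tried on simulated data first. CPM are TMM-scaled, with 2 as the prior count for log2 values. Permutation tests used scipy 1.17.1.

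Members, gene lists and tests were chosen with earlier results of these data known. Named genes were the members and Btg4, for each list the 2 genes with the smallest p and the most abundant one, and for each member the 3 genes most like it among genes averaging 3 or more in log2 CPM, though not all of them are described. Alternatives were RLE or library size scaling, no filter, DESeq2 1.42.0 and leaving out each tumor.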

Additional observations from a re-analysis of the deposited data

Results flagged for a closer look

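Among 73 named genes, 3 had a BI tumor far from the other 5, by the gap to its nearest neighbour as a share of the range, against the 95% critical value of Dixon's test, which chance passes in about 5% of groups. BI tumor 6 had a share of 0.71 for Hhex, the gene most like Btg2, at 11.8 CPM against 14.3 CPM in the next tumor. The same tumor had a share of 0.699 for Qtrt2, 1 of the genes most like Btg3, at 33.7 CPM against 28.5 CPM. BI tumor 6 was the lowest BI tumor for Btg2 and the highest for Btg3. This is no separate observation, since Hhex and Qtrt2 were chosen for following those genes across the same tumors. BI tumor 9 had a share of 0.641 for the adipocyte marker Fabp4, at 210 CPM against 102 CPM. None of the 5 family genes had such a tumor.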

How the results depend on the processing

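The fold changes of Btg1, Btg2, Tob1 and Tob2 kept their sign under RLE or library size scaling, no filter, DESeq2 and without any 1 tumor, within -0.11 to -0.05 for Btg1, 0.52 to 0.66 for Btg2, 0.11 to 0.27 for Tob1 and 0.28 to 0.34 for Tob2 on the log2 scale. That of Btg3 ran from -0.17 without vehicle tumor 1 to 0.12 without vehicle tumor 2. The order of levels and the calls of its 4 comparisons held without division by length and without any 1 tumor, although without length Tob1 was 3.06-fold and not 1.86-fold above Btg3. Counts over all genes rested on the vehicle tumors: leaving out 1 tumor gave 1332 to 2026 genes higher and 1172 to 1980 lower, the lowest of both without vehicle tumor 3, and 1289 lower without vehicle tumor 1. All lists together had 39 of 219 tested genes lower and 50 higher, and 24 to 42 lower and 34 to 55 higher when 1 tumor was left out, the lowest being without vehicle tumor 3 and without vehicle tumor 1, respectively. Of 884 alternative values for 68 named genes outside the family, 46 lost a call, 12 gained one and 0 changed sign with a call. With 3 vehicle tumors and 65 to 195 counts for Btg3, a small difference in that gene was not detectable. No paired analysis was possible because the groups share no replicate numbers.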
